A study of Mus musculus with 18 samples.

Results

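The 10 genes described here encode the core of the Nodal, Lefty and activin signalling pathway: the ligand genes Nodal, Gdf3 and Inhbb, the co-receptor gene Tdgf1, the receptor genes Acvr1b and Acvr2b, the inhibitor genes Lefty1, Lefty2 and Fst, and the nuclear factor gene Foxh1. They were taken by gene symbol from 19938 genes measured on 18 arrays. All 10 were measured, each by 1 probe set, and all 10 passed the filter on dim genes that served as an alternative setting. The cells were F9, a mouse embryonal carcinoma line that differentiates towards primitive endoderm when given retinoic acid. They received all-trans retinoic acid (ATRA, 1 µM), which activates every retinoic acid receptor (RAR), or an agonist that the labels call specific for 1 receptor: BMS961 (RARγ, 0.1 µM), BMS753 (RARα, 1 µM) or BMS641 (RARβ, 1 µM), for 2, 6, 24 or 48 h, or ethanol vehicle for 48 h. Each retinoid and time had 1 array and vehicle had 2, and nothing in the labels tells if the vehicle arrays came from separate cultures. No untreated line, second clone or vehicle at the earlier times was analysed here, so a difference between an early array and vehicle also holds a difference in hours since seeding or addition.

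Nodal and activins are ligands of the TGF-beta family that bind pairs of type I and type II receptors, which then phosphorylate SMAD2 and SMAD3. Nodal and its relative GDF3 also need a co-receptor such as Cripto, the product of Tdgf1, whereas activins do not. In the nucleus the SMAD proteins act with partners such as FOXH1, and in the mouse embryo Nodal and the genes of its own inhibitors, Lefty1 and Lefty2, are among the targets, which makes a loop of self-activation and feedback inhibition. Follistatin, the product of Fst, binds and blocks activins. In the mouse embryo the pathway maintains the epiblast and patterns the endoderm and mesoderm.

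Promoter windows of 5 of the 10 genes were read from RefSeq (GRCm38.p6), and those of Tdgf1, whose level moved most steeply with time among the ligands and receptors, and of Nodal, the namesake ligand, are shown. Capitals mark matches on either strand to AATNNACA, the core letters bound by FOXH1, or to CAGAC, the SMAD letters. Both windows hold the 250 bases before the start of the gene, written along the gene's own strand.
Tdgf1 (chr9:110946159-110946408, minus strand): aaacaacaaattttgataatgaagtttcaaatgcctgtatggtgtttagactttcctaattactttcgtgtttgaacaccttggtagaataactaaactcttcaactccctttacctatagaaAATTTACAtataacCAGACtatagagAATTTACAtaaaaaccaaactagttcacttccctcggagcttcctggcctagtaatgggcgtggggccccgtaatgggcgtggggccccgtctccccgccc
Nodal (chr10:61417722-61417971, plus strand): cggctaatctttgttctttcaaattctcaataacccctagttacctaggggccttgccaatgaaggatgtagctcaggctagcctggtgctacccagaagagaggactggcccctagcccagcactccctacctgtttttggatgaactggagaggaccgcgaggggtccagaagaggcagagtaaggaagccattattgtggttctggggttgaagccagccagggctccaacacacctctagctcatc
The Tdgf1 window held 2 FOXH1 matches, both AATTTACA, which began at positions -127 and -101 from the start, with a CAGAC between them at -113. The FOXH1 letters occurred in 10.9% of 32851 promoter windows of the same length and the SMAD letters in 42.2%. AGGTCA, the core letters of nuclear receptor sites, found in 14.0% of the windows, had no match in any of the 5 windows. The Acvr2b window held 1 SMAD match, and the Nodal, Inhbb and Acvr1b windows held no match to the 3 motifs. A match is a description of letters and does not show that a protein binds there.

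Levels are log2 values from robust multi-array averaging (RMA), so a difference of 1 is 2-fold. They compare arrays for 1 gene and not 1 gene with another. Embryonal carcinoma markers, such as Pou5f1 and Nanog, were all 8 measured. At 24 h and 48 h their summed level was 85.9 to 87.5 with ATRA, 87.5 to 88.1 with BMS961, 90.3 to 90.5 with BMS753 and 89.8 with BMS641, against 88.7 to 92.5 with vehicle. The summed level of 12 primitive and parietal endoderm markers was 86.1 to 114.0 with ATRA and 84.5 to 103.6 with BMS961 at 24 h and 48 h. It was 79.0 to 83.3 with BMS753, 77.1 to 78.2 with BMS641 and 76.2 to 85.8 with vehicle. At 2 h and 6 h this sum was 78.9 to 87.4 with ATRA and between 77.7 and 79.0 with the BMS compounds. The 87.4, at 2 h, exceeded the 86.1 of ATRA at 24 h. The 85.8, of vehicle replicate 1, exceeded the 84.5 of BMS961 at 24 h. Late against vehicle, 4 embryonal carcinoma markers were called lower and 3 endoderm markers higher with ATRA, and 1 of each with BMS961. Also with ATRA late, 1 fibroblast marker was called higher and 1 neural marker higher and 1 lower. Of all genes, 3.31% were called higher and 1.4% lower late with ATRA, and 0.818% and 0.446% late with BMS961. Early with ATRA 1 embryonal carcinoma marker was called lower and 1 fibroblast marker higher, against 0.396% and 0.853% of all genes. Late with ATRA the summed level of 7 visceral endoderm markers was 36.3 to 38.4, of 6 fibroblast markers 30.9 to 31.8 and of 6 neural markers 37.7 to 38.9, against 32.4 to 37.2, 29.8 to 30.9 and 38.0 to 38.8 with vehicle. The part of these marker changes in the results below was not tested. In these bulk samples, fewer cells that express a gene and less RNA per cell cannot be told apart. The vehicle arrays themselves differed: over all genes the median absolute difference was 0.233 and 3.34% of genes lay at least 2-fold apart. Among the members, replicate 1 exceeded replicate 2 by 1.85 for Lefty1, 1.52 for Lefty2, 1.46 for Inhbb, 0.62 for Acvr1b and 0.49 for Nodal. The remaining 5 differed by 0.37 or less. Arrays were also correlated over 12146 probe sets with no listed gene, after subtracting each probe set's mean over the 18 arrays. Centred values can correlate below 0 where the levels themselves do not. Vehicle replicate 1 correlated on average at 0.322 with the 4 ATRA arrays and at -0.189 with the 12 BMS arrays. Vehicle replicate 2 correlated at -0.262 and 0.037. For this reason called results were also computed with ATRA against vehicle replicate 1 alone and the BMS compounds against replicate 2 alone. This setting, called the array-set block below, takes the vehicle pair out of the spread. The labels name no array sets. The grouping was inferred from these correlations, and that of replicate 2 with the BMS arrays was near 0.

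**Figure D1:**
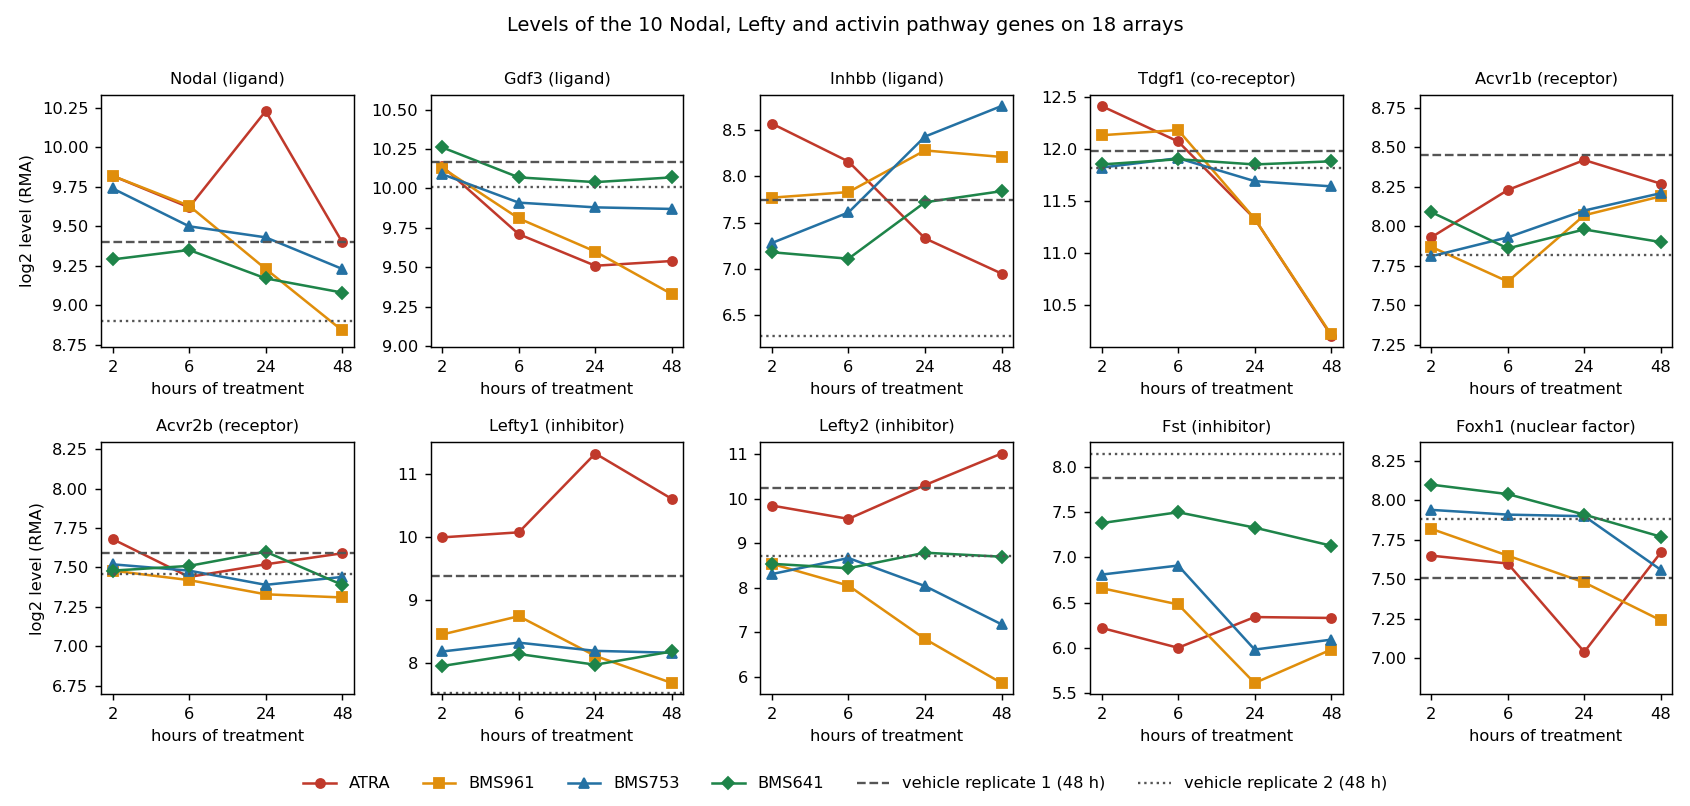
Log2 RMA level (y axis, scaled per gene) of each of the 10 genes against hours of treatment (x axis, evenly spaced) for ATRA, BMS961, BMS753 and BMS641, 1 array per point, with the 2 vehicle arrays of 48 h as dashed and dotted lines. The ATRA curve of Lefty1 lies above the 3 other curves at every time, and the Tdgf1 curves of ATRA and BMS961 meet at 10.21 and 10.22 at 48 h.

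The comparison with vehicle asked which genes each receptor agonist changed. Fst, the follistatin gene, fell with ATRA and BMS961 early (2 h and 6 h) and with ATRA, BMS961 and BMS753 late (24 h and 48 h), by 2.73- to 4.66-fold. Late, Lefty1 rose 5.72-fold with ATRA and Lefty2 fell 8.72-fold with BMS961. Gdf3 fell about 1.5-fold with ATRA and BMS961, and Tdgf1 fell 2.19-fold with ATRA. No change was called with BMS641. Calls are at a limma adjusted p under 0.05, adjusted over 19938 genes within a comparison, and each compares the 2 arrays of a phase with the 2 vehicle arrays, which all 8 comparisons share.

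Early with ATRA, 1 of the 10 members was called lower, against 0.396% of all genes, and 0 higher, against 0.853%, and 4 members had an unadjusted p under 0.05, as had 10% of all genes. Early with BMS961, 1 member was called lower and 0 higher, against 0.00502% and 0.0351% of all genes, and 4 had an unadjusted p under 0.05, against 7.03% of all genes. That 1 member was Fst, the only gene of the 19938 called lower there. Late with ATRA, 1 member was called higher and 3 lower, against 3.31% and 1.4% of all genes, and 6 had an unadjusted p under 0.05, against 19.8%. Late with BMS961, 0 members were called higher and 3 lower, against 0.818% and 0.446%, with 5 at an unadjusted p under 0.05, against 11.6%. Late with BMS753, 0 were called higher and 1 lower, against 0.171% and 0.015%, with 3 at an unadjusted p under 0.05, against 8.73%. Limma called 0 members in either direction with BMS753 early, where 2 had an unadjusted p under 0.05, and 0 with BMS641 early or late, where 1 had in each phase. In these 3 comparisons 0% of all genes were called, and 5.59%, 7.53% and 4.59% of all genes had an unadjusted p under 0.05, so the BMS641 counts were near those shares. Over the members, the median late change was 0.08 for ATRA, -0.44 for BMS961, -0.17 for BMS753 and -0.04 for BMS641, beside -0.02, 0.01, 0.01 and 0.02 over all genes.

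**Figure D2:**
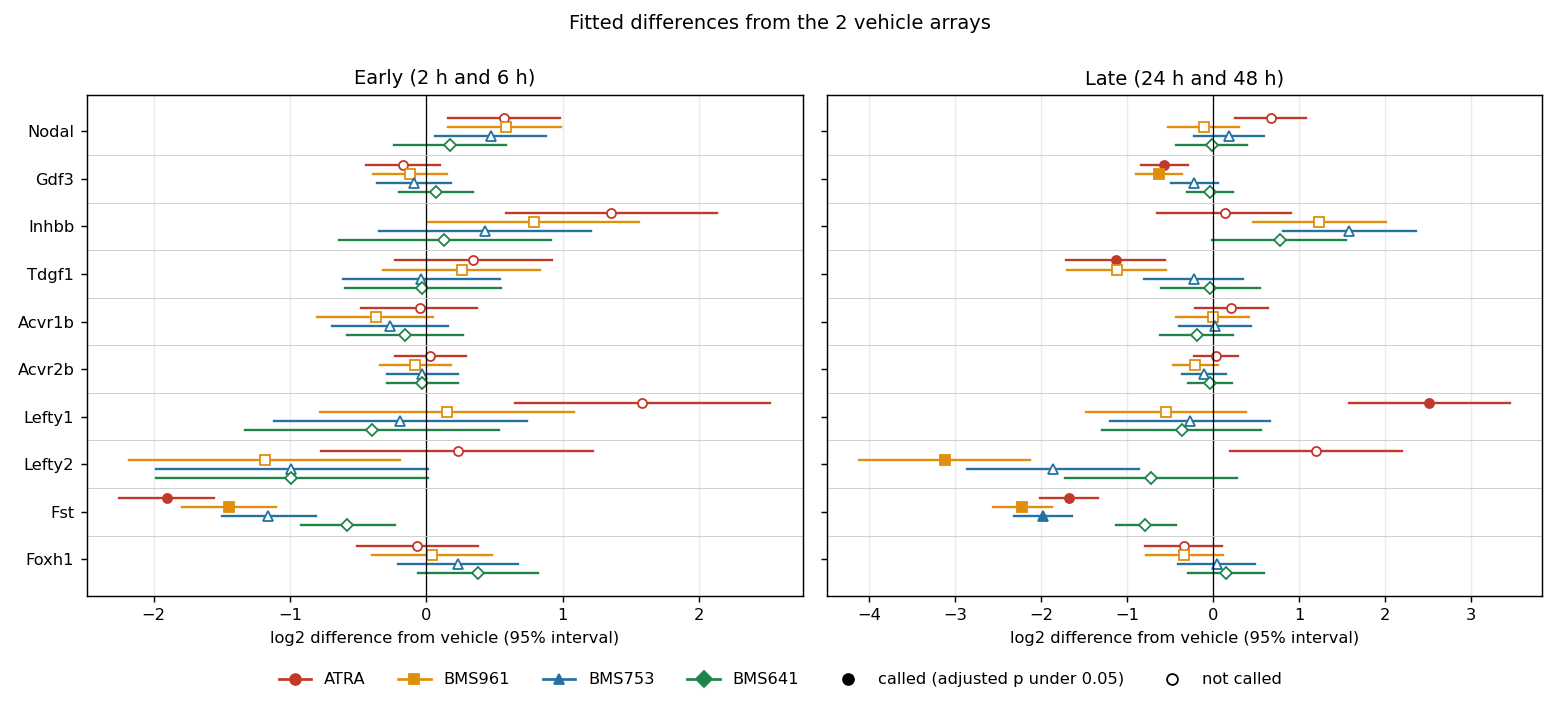
Fitted log2 difference from the 2 vehicle arrays (x axis) for the 10 genes (y axis) with each retinoid, early at left and late at right; points are estimates, lines are 95% intervals and filled points passed an adjusted p of 0.05. Fst lies to the left of 0 with every retinoid in both phases, and late Lefty1 with ATRA and Lefty2 with BMS961 lie on opposite sides.

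Among the ligands, Nodal read 9.82, 9.62, 10.23 and 9.40 at 2, 6, 24 and 48 h with ATRA. Its levels were 9.82, 9.63, 9.23 and 8.84 with BMS961, 9.74, 9.50, 9.43 and 9.23 with BMS753, and 9.29, 9.35, 9.17 and 9.08 with BMS641. Vehicle read 9.40 and 8.90. Thus the ATRA and BMS961 arrays were within 0.01 of each other at 2 h and 6 h and 1.00 apart at 24 h, and the 24 h ATRA array was the highest of all 18. The ATRA arrays equalled or exceeded the higher vehicle array at all 4 times. The late Nodal change with ATRA, 0.67 ± 0.19 (SE), missed the threshold (adjusted p = 0.0673) and was 0.42 (adjusted p = 0.427) with the array-set block. Without vehicle replicate 1 it was 0.91 (adjusted p = 0.00857). The early change with ATRA, 0.57 (adjusted p = 0.243), was 0.32 (adjusted p = 0.568) with the block and 0.82 (adjusted p = 0.0423) without vehicle replicate 1.

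Gdf3, which encodes a Nodal-related ligand, had levels of 10.14, 9.71, 9.51 and 9.54 with ATRA and of 10.13, 9.81, 9.60 and 9.33 with BMS961. BMS753 gave 10.09, 9.91, 9.88 and 9.87, BMS641 gave 10.26, 10.07, 10.04 and 10.07, and vehicle 10.17 and 10.01. From 6 h on, every ATRA, BMS961 and BMS753 array lay below both vehicle arrays. Late, Gdf3 fell with ATRA by 0.57 ± 0.12 (1.48-fold, 95% interval -0.84 to -0.30, adjusted p = 0.0272) and with BMS961 by 0.63 ± 0.12 (1.54-fold, adjusted p = 0.0341). Both calls were lost with the array-set block (-0.65 and -0.55, adjusted p = 0.081 and 0.0706) and without the common time steps of the fit (adjusted p = 0.0564 and 0.0838). The ATRA call was also lost without the ATRA array of 24 h or 48 h (adjusted p = 0.0823 and 0.122). The BMS961 call was lost on leaving out 13 of the 18 arrays in turn (adjusted p between 0.0535 and 0.457) and kept without vehicle replicate 2 or any ATRA array.

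Inhbb encodes the beta B subunit that activin B and inhibin B share. With ATRA it read 8.57, 8.16, 7.33 and 6.95, a descent over the 4 times. With BMS753 it ran the other way, at 7.28, 7.61, 8.43 and 8.76. BMS961 gave 7.77, 7.83, 8.28 and 8.21, BMS641 gave 7.18, 7.11, 7.72 and 7.84, and vehicle read 7.74 and 6.28. Late, the difference from vehicle was 0.13 ± 0.35 for ATRA, 1.23 ± 0.35 for BMS961, 1.58 ± 0.35 for BMS753 and 0.77 ± 0.35 for BMS641, and none was called (adjusted p = 0.903, 0.144, 0.148 and 0.995). With the array-set block, in which the wide vehicle pair no longer counts as spread, Inhbb was called higher with BMS961 (1.96, adjusted p = 0.000966) and BMS753 (2.31, adjusted p = 0.00145). Without vehicle replicate 2 these changes were 0.50 and 0.85 (adjusted p = 0.274 and 0.0656). The late ATRA change changed sign with the vehicle array used: it was -0.60 (adjusted p = 0.31) with the block, against replicate 1 alone, and was called at 0.86 (adjusted p = 0.0235) against replicate 2 alone. Early with ATRA, Inhbb differed from vehicle by 1.35 ± 0.35 (2.55-fold, 95% interval 0.58 to 2.13, adjusted p = 0.113). That difference was 0.62 (adjusted p = 0.223) with the block and was called without vehicle replicate 1 (2.08, adjusted p = 0.00072).

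Tdgf1 read 12.41, 12.07, 11.33 and 10.21 with ATRA and 12.13, 12.18, 11.33 and 10.22 with BMS961. It stayed between 11.64 and 11.91 with BMS753 and between 11.85 and 11.90 with BMS641, and vehicle read 11.98 and 11.82. The late ATRA and BMS961 arrays lay below all others, and the pair differed by 0.02 or less at 24 h and 48 h despite the differing doses. Late, Tdgf1 fell by 1.13 ± 0.26 with ATRA (2.19-fold, 95% interval -1.71 to -0.56, adjusted p = 0.034), while the change of -1.12 ± 0.26 with BMS961 was not called (adjusted p = 0.0694). The BMS961 change passed when the ATRA array of 24 h or 48 h was left out (adjusted p = 0.0312). The ATRA call was lost with the block, which leaves out vehicle replicate 2 (-1.21, adjusted p = 0.142), and without the ATRA array of 48 h (-0.76, adjusted p = 0.298). It was also lost without common steps (adjusted p = 0.0633) and without any 1 of the 6 early BMS arrays (adjusted p between 0.0528 and 0.0577).

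Acvr1b, for the type I activin receptor ALK4, lay between 7.65 and 8.42 on the retinoid arrays, against vehicle levels of 8.45 and 7.82, and 14 of its 16 retinoid levels fell between the vehicle arrays. Acvr2b, for a type II activin receptor, ranged from 7.31 to 7.68, against 7.59 and 7.46 with vehicle. Their late changes from vehicle lay between -0.21 and 0.21 over the 4 retinoids, and none was called in any comparison of all arrays. Without vehicle replicate 2, Acvr1b was called lower early with BMS961 (-0.69, adjusted p = 0.0407), where it was -0.06 with the block. The late ATRA intervals, -0.21 to 0.64 for Acvr1b and -0.23 to 0.29 for Acvr2b, bound the change that these arrays could miss. Foxh1, for the SMAD-binding nuclear factor, read 7.65, 7.60, 7.04 and 7.67 with ATRA and 7.82, 7.65, 7.48 and 7.24 with BMS961. Its levels were 7.56 to 7.94 with BMS753, 7.77 to 8.10 with BMS641, and 7.51 and 7.88 with vehicle. The 24 h ATRA array, on which Nodal and Lefty1 were highest, was the lowest of the 18 for Foxh1. No Foxh1 change from vehicle was called (late -0.34 ± 0.20 with ATRA and -0.34 ± 0.20 with BMS961).

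Of the inhibitors, Fst had the most calls against vehicle and the only early ones. Its levels were 6.22, 6.00, 6.34 and 6.33 with ATRA, 6.66, 6.48, 5.61 and 5.98 with BMS961, and 6.81, 6.91, 5.98 and 6.09 with BMS753. BMS641 gave 7.38, 7.50, 7.33 and 7.13, and vehicle 7.88 and 8.15. All 16 retinoid levels lay below both vehicle arrays, and 11 of them were at least 2-fold below both, already at 2 h with ATRA, BMS961 and BMS753. Early, Fst fell by 1.90 ± 0.16 with ATRA (3.74-fold, adjusted p = 0.000213) and by 1.45 ± 0.16 with BMS961 (2.73-fold, adjusted p = 0.0115). The early change of -1.16 ± 0.16 with BMS753 was not called (adjusted p = 0.216), although it was without common steps (adjusted p = 0.0454) or without vehicle replicate 2 (-1.02, adjusted p = 0.0107). Late, Fst fell with all 3 of these, by a log2 change of -1.68 ± 0.16 for ATRA (3.21-fold, adjusted p = 0.00043), -2.22 ± 0.16 for BMS961 (4.66-fold, adjusted p = 0.000119) and -1.98 ± 0.16 for BMS753 (3.94-fold, adjusted p = 0.000835). With BMS641 the changes were -0.58 ± 0.16 early and -0.79 ± 0.16 late, neither called (adjusted p = 0.618 and 0.995). Early against BMS641, which matches the time, Fst differed by -0.87 ± 0.16 with BMS961 (adjusted p = 0.607) and -0.58 ± 0.16 with BMS753, neither called. At 2 h the difference from BMS641 was -1.16 with ATRA, -0.72 with BMS961 and -0.58 with BMS753.

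With the array-set block the Fst changes from vehicle were -1.77 and -1.58 early for ATRA and BMS961. Late they were -1.55, -2.36 and -2.11 for ATRA, BMS961 and BMS753. The block removes the vehicle pair, 0.27 apart for Fst, from the spread, so it does not test the calls. The early BMS961 call was lost without its 2 h or 6 h array (-1.54 and -1.36, adjusted p = 0.148 and 0.62). The late BMS753 call was lost without its 24 h array (-1.95, adjusted p = 0.0523). With ATRA the Fst level was nearly flat, with a range of 0.34 over the 4 times. With BMS961 and BMS753 it was lower at 24 h and 48 h than at 2 h and 6 h, with differences of -0.77 ± 0.16 (adjusted p = 0.0505) and -0.82 ± 0.16, neither called.

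Lefty1 read 9.99, 10.07, 11.32 and 10.60 with ATRA. Its levels were 8.45, 8.74, 8.11 and 7.68 with BMS961, 8.18, 8.32, 8.19 and 8.16 with BMS753, and 7.95, 8.14, 7.97 and 8.18 with BMS641. Vehicle read 9.37 and 7.52. Only the 4 ATRA arrays lay above both vehicle arrays, and all 12 BMS arrays lay between them. The late change with ATRA was 2.51 ± 0.43 (5.72-fold, 95% interval 1.58 to 3.45, adjusted p = 0.00986). Against vehicle replicate 1 alone, with the array-set block, it was 1.59, and against replicate 2 alone it was 3.44, so the size turned on the vehicle array. Both settings remove the vehicle gap of 1.85 from the spread, so they do not test the call. Early with ATRA the difference was 1.58 ± 0.43 (adjusted p = 0.121), and 0.66 (adjusted p = 0.185) with the block. It was called without vehicle replicate 1 (2.51, adjusted p = 0.000249). No Lefty1 change from vehicle was called for the BMS compounds. Without vehicle replicate 2, Lefty1 was called lower with BMS753 and BMS641 in both phases and with BMS961 late (-1.48 to -1.12). With the block, against replicate 2 alone, these 5 differences lay between 0.37 and 0.73 and none was called.

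Lefty2 read 9.85, 9.55, 10.31 and 11.02 with ATRA, but 8.54, 8.05, 6.85 and 5.86 with BMS961. BMS753 gave 8.31, 8.67, 8.04 and 7.18, BMS641 gave 8.54, 8.44, 8.79 and 8.70, and vehicle read 10.24 and 8.71. The BMS961 level was lower at each later time, the BMS753 level was lower at 24 h and 48 h than before, and the BMS641 level stayed within 0.35. Late, Lefty2 fell by 3.12 ± 0.46 with BMS961 (8.72-fold, 95% interval -4.12 to -2.13, adjusted p = 0.00753). The change was -2.36 against vehicle replicate 2 alone, with the array-set block, and -3.89 against replicate 1 alone. Both settings remove the vehicle pair from the spread, so they do not test the call. The call was lost without the BMS961 array of 24 h or 48 h (-3.58 and -2.67). The late changes of 1.19 ± 0.46 with ATRA and -1.86 ± 0.46 with BMS753 were not called (adjusted p = 0.166 and 0.19). With ATRA the Lefty2 change was called without vehicle replicate 1 (1.95, adjusted p = 0.00772) or without the 24 h ATRA array (1.86, adjusted p = 0.0478), but with the array-set block, against replicate 1 alone, it was 0.43 (adjusted p = 0.741), and the 24 h ATRA array exceeded vehicle replicate 1 by 0.07. With BMS753 it was called without vehicle replicate 2 (-2.63, adjusted p = 0.0113) and was -1.10 (adjusted p = 0.331) with the block. Early, no Lefty2 change from vehicle was called. Without vehicle replicate 2 it was called lower early with all 3 BMS compounds (-1.95 to -1.75), where the block gave -0.42 to -0.22.

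**Figure D3:**
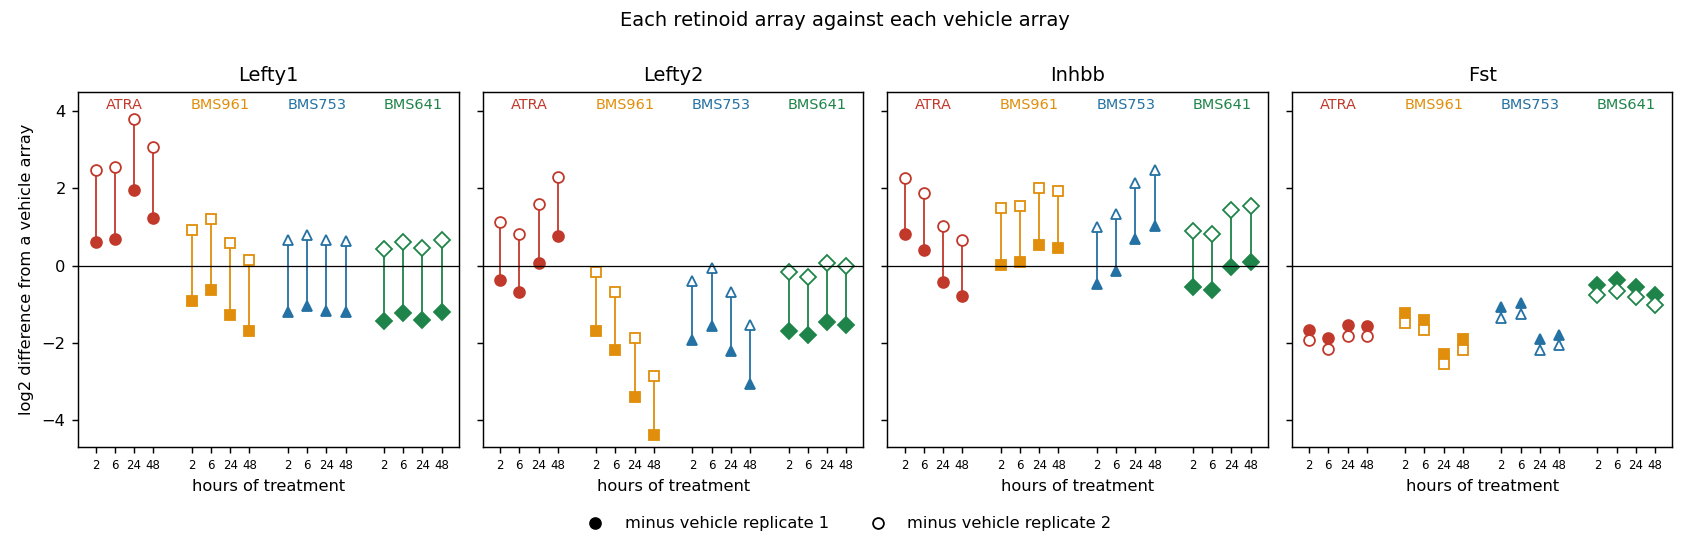
Log2 difference of each retinoid array from vehicle replicate 1 (filled) and from vehicle replicate 2 (open) for Lefty1, Lefty2, Inhbb and Fst (y axis), by retinoid and hours of treatment (x axis); the line joins the 2 differences of 1 array. The joined points lie 1.85 apart for Lefty1, 1.52 for Lefty2 and 1.46 for Inhbb but only 0.27 apart for Fst, whose 32 differences are all below 0.

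At single times, 37 of the 160 member levels on retinoid arrays lay above both vehicle arrays, 56 below both and 67 between them. Past 2-fold from both vehicle arrays, 3 levels were higher: Lefty1 with ATRA at 24 h and 48 h, and Inhbb with BMS753 at 48 h. The 16 that were lower were 11 of Fst, 3 of Lefty2 (BMS961 at 24 h and 48 h, BMS753 at 48 h) and the 48 h levels of Tdgf1 with ATRA and BMS961. Over all genes, 0.414% of levels on the 16 retinoid arrays were past 2-fold higher and 0.127% past 2-fold lower. These single arrays carry no test.

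The comparison with BMS641, the agonist after which no gene was called against vehicle, matches the time of treatment. ATRA and BMS753 were used at its dose and BMS961 at a lower one. Late with ATRA, Lefty1, Lefty2 and Nodal were higher and Tdgf1, Fst and Gdf3 lower than with BMS641. Late with BMS961, Lefty2, Fst and Gdf3 were lower. No member was called between BMS753 and BMS641. The 6 comparisons share the BMS641 arrays, and calls were adjusted over all genes in each.

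Early with ATRA, 1 member was called higher and 1 lower than with BMS641, against 0.963% and 0.637% of all genes, and 5 had an unadjusted p under 0.05, against 14.2%. Lefty1 was 3.95-fold higher (1.98 ± 0.43, adjusted p = 0.0435) and Fst 2.51-fold lower (-1.33 ± 0.16, adjusted p = 0.00258). Late with ATRA, 3 members were called higher and 3 lower, against 7.81% and 6.98%, and 7 had an unadjusted p under 0.05, against 28.8%. Lefty1 was higher by 2.88 ± 0.43 (7.38-fold, adjusted p = 0.00299), with 3.35 at 24 h and 2.42 at 48 h. Lefty2 was higher by 1.92 ± 0.46 (3.78-fold, adjusted p = 0.0179), and Nodal by 0.69 ± 0.19 (1.61-fold, adjusted p = 0.0313), of which 1.05 was seen at 24 h and 0.33 at 48 h. Tdgf1 was lower by a difference of -1.10 ± 0.26 (2.14-fold, adjusted p = 0.0183), Fst of -0.90 ± 0.16 (1.86-fold, adjusted p = 0.00552) and Gdf3 of -0.53 ± 0.12 (1.44-fold, adjusted p = 0.0169).

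All 8 calls between ATRA and BMS641 were lost with the array-set block, which subtracts the difference between the vehicle arrays. The Lefty1 difference became 0.13 early and 1.03 late (adjusted p = 0.92 and 0.528), Lefty2 0.40 (adjusted p = 0.87) and Nodal 0.20 (adjusted p = 0.864). For Fst it became -1.06 early and -0.63 late (adjusted p = 0.202 and 0.632), for Tdgf1 -1.25 (adjusted p = 0.609) and for Gdf3 -0.69 (adjusted p = 0.505). Single arrays decided several of these calls. Without the ATRA array of 24 h, Nodal was 0.39 (adjusted p = 0.243), and without the BMS641 array of 24 h or 48 h it was 0.50 and 0.88 (adjusted p = 0.265 and 0.106). Without the ATRA array of 48 h, Lefty2 was 1.24 (adjusted p = 0.17) and Tdgf1 -0.73 (adjusted p = 0.171). Leaving out the BMS641 array of 24 h or 48 h ended the calls of Lefty2 (1.77 and 2.07), Fst (-0.72 and -1.07) and Gdf3 (-0.59 and -0.47), and that of 48 h ended the Tdgf1 call (-0.70). The Gdf3 call also ended without the ATRA array of 24 h or 48 h (-0.47 and -0.59), and the early Fst call without the BMS641 array of 6 h (-1.22, adjusted p = 0.082). The Nodal call was also lost without common steps (adjusted p = 0.0612). The early Lefty1 call was lost with quantile normalization (adjusted p = 0.0552) and with a trended, robust prior (adjusted p = 0.0653). It was also lost on leaving out 14 of the 18 arrays in turn, with values from 1.92 to 2.05 and adjusted p between 0.0624 and 0.323, and was kept without either vehicle array or either late ATRA array. The late Lefty1 call held without each of the 18 arrays in turn.

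Late with BMS961, 0 members were called higher and 3 lower than with BMS641, against 0.637% and 0.557% of all genes, and 5 had an unadjusted p under 0.05, against 11.1%. Lefty2 differed by -2.39 ± 0.46 (5.26-fold lower, adjusted p = 0.0343), Fst by -1.43 ± 0.16 (2.70-fold lower, adjusted p = 0.00144) and Gdf3 by -0.59 ± 0.12 (adjusted p = 0.0472). Tdgf1, at -1.09 ± 0.26, was not called (adjusted p = 0.0852). The array-set block cannot test these 3 calls. It treats all BMS arrays alike, so it leaves the differences as they are and only removes the vehicle pair from the spread. The Gdf3 call was lost with quantile normalization (adjusted p = 0.0656) and without common steps (adjusted p = 0.114), and the Lefty2 call with a trended, robust prior (adjusted p = 0.0525). The Fst call held without each of the 18 arrays. Those of Lefty2 and Gdf3 were lost without any 1 of the 12 BMS arrays or the 2 early ATRA arrays, with adjusted p of 0.0533 to 0.528 for Lefty2 and 0.0648 to 0.647 for Gdf3. Early with BMS961, limma called 0 members in either direction, against 0.00502% of all genes higher and 0% lower, and 1 had an unadjusted p under 0.05, against 3.32%.

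Between BMS753 and BMS641, at the same dose, limma called 0 members and 0% of all genes in either phase, with 1 member early and 3 late at an unadjusted p under 0.05, against 1.2% and 4.06% of all genes. The largest late difference was that of Fst, -1.19 ± 0.16 (95% interval -1.54 to -0.85, adjusted p = 0.0792). It was called without common steps (adjusted p = 0.0317) and without either late ATRA array. It was also called with the array-set block and without either vehicle array. Those settings leave the difference as it is and remove the vehicle pair from the spread.

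**Figure D4:**
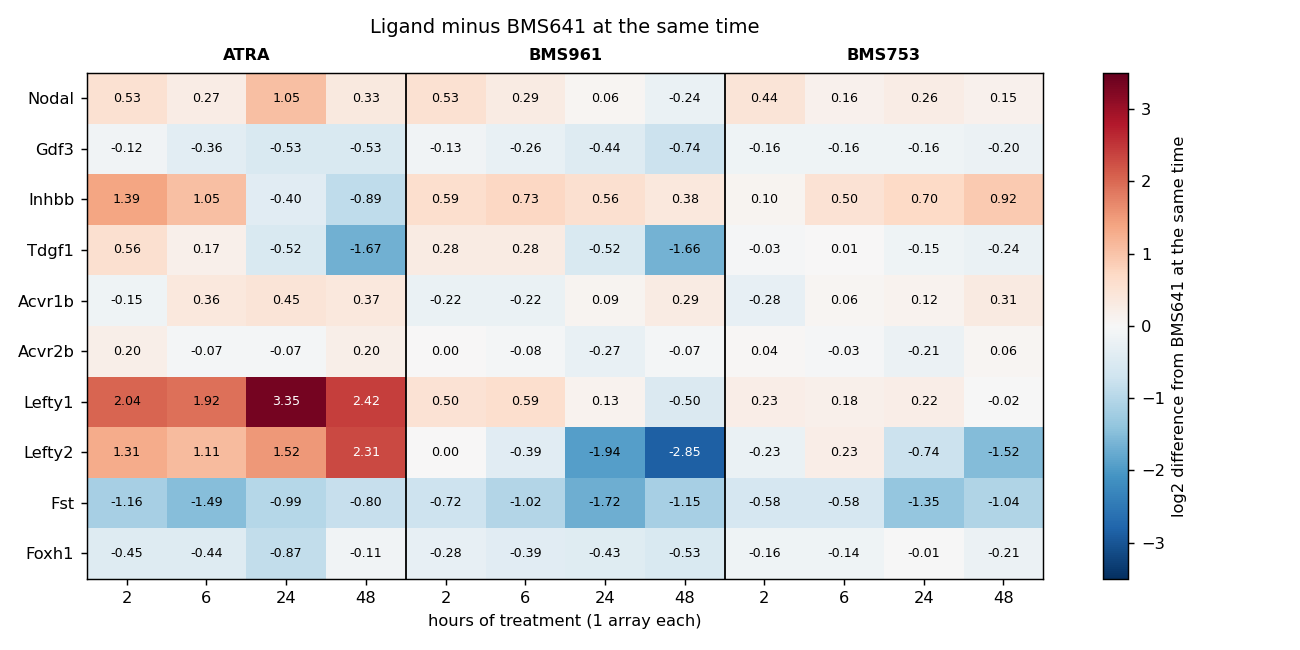
Log2 difference from the BMS641 array of the same time (colour and printed value) for the 10 genes (rows) with ATRA, BMS961 and BMS753 at 2, 6, 24 and 48 h (columns), 1 array each and with no test. Lefty1 is high in the ATRA columns and Lefty2 runs to 2.31 with ATRA and to -2.85 with BMS961 at 48 h.

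The largest differences between the ATRA and BMS961 arrays were those of the Lefty genes. At 2, 6, 24 and 48 h, the ATRA array exceeded the BMS961 array by 1.55, 1.33, 3.22 and 2.91 for Lefty1 and by 1.31, 1.5, 3.46 and 5.16 for Lefty2. The gaps at 2 h and 6 h were no larger than those between the vehicle arrays, 1.85 for Lefty1 and 1.52 for Lefty2. In both genes the higher vehicle array was replicate 1, the one more like the ATRA arrays. Nodal was level between the ligands at 2 h and 6 h and higher with ATRA by 1.00 at 24 h and 0.56 at 48 h. Inhbb was higher with ATRA at 2 h and 6 h, by 0.80 and 0.33, and differed by -0.95 and -1.26 at 24 h and 48 h. Only Lefty1 and Lefty2 parted to a called extent, and only late. Nodal, Inhbb, Tdgf1, Gdf3 and the receptor genes did not. The doses differed, so this is no comparison at matched dose.

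Limma called 0 members between ATRA and BMS961 early, against 0.0903% of all genes in each direction, with 3 at an unadjusted p under 0.05, against 11.3%. Late, 2 members were called higher and 0 lower with ATRA, against 1.27% and 0.873%, and 5 had an unadjusted p under 0.05, against 19.2%. Lefty1 was 8.37-fold higher (3.07 ± 0.43, 95% interval 2.14 to 4.00, adjusted p = 0.0106) and Lefty2 19.9-fold higher (4.31 ± 0.46, 95% interval 3.32 to 5.31, adjusted p = 0.00508). Nodal (0.78 ± 0.19, adjusted p = 0.0561), Fst (0.54 ± 0.16, adjusted p = 0.0922) and Inhbb (-1.11 ± 0.35, adjusted p = 0.114) were not called, although all 3 were without either vehicle array (adjusted p = 0.0118, 0.0421 and 0.00466). The late difference of Tdgf1 had an estimate near 0. With the array-set block, neither Lefty call held: Lefty1 was 1.22 (adjusted p = 0.316) and Lefty2 2.79 (adjusted p = 0.181). With it Inhbb was called lower with ATRA (-2.57, adjusted p = 0.0228). Without the BMS961 array of 48 h both Lefty calls were lost (2.95 and 3.86, adjusted p = 0.17 and 0.0824), and without that of 24 h the Lefty1 call was lost (3.19, adjusted p = 0.139).

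A difference between late and early within a ligand needs no vehicle array, and a constant difference between array sets cancels in it. Tdgf1 fell late against early with ATRA by 1.47 ± 0.26 (2.78-fold, adjusted p = 0.00984) and with BMS961 by 1.38 ± 0.26 (2.60-fold, adjusted p = 0.0407). These were the only members called: 0 higher and 1 lower with ATRA, against 4.95% and 2.32% of all genes, and 0 higher and 1 lower with BMS961, against 0.502% and 0.266%. At an unadjusted p under 0.05 there were 3 members with ATRA and 5 with BMS961, against 21.3% and 13.1% of all genes. Limma called 0 members with BMS753 (2 at an unadjusted p under 0.05, against 7.08% of all genes; 0.00502% of all genes called higher, 0% lower) and 0 with BMS641 (0 at an unadjusted p under 0.05, against 1.96%; 0% in each direction). The ATRA call was lost without its array of 2 h or 48 h (-1.27 and -1.10, adjusted p = 0.152 and 0.121). The BMS961 call was lost with quantile normalization (adjusted p = 0.0549), without common steps (adjusted p = 0.0842) and on leaving out 12 of the 18 arrays in turn, with adjusted p between 0.0527 and 0.467, and kept without either vehicle array, either late ATRA array or either late BMS641 array. Uncalled late minus early differences included Inhbb with ATRA (-1.23 ± 0.35, adjusted p = 0.0593), Lefty2 with BMS961 (-1.94 ± 0.46, adjusted p = 0.0759) and Gdf3 with ATRA and BMS961 (-0.40 ± 0.12 and -0.51 ± 0.12, adjusted p = 0.076 and 0.0858). Leaving out either vehicle array, which removes that pair from the spread and leaves these differences as they are, all 4 were called (adjusted p = 0.00193, 0.0101, 0.049 and 0.0407).

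Whether these time courses differed between ligands was tested directly over 6 ligand pairs, a test added after seeing the data. Limma called 0 of the 10 members in any pair. For Lefty2, late minus early was 0.96 with ATRA and -1.94 with BMS961, a difference of 2.90 ± 0.64 (95% interval 1.5 to 4.31, unadjusted p = 0.000783, adjusted p = 0.138). Between ATRA and BMS753 the Inhbb difference was -2.38 ± 0.50 (95% interval -3.47 to -1.28, unadjusted p = 0.00053, adjusted p = 0.0777). The Tdgf1 difference was -1.46 ± 0.37 between ATRA and BMS641 (unadjusted p = 0.00208, adjusted p = 0.132) and -0.10 ± 0.37 between ATRA and BMS961 (95% interval -0.91 to 0.72). Members with an unadjusted p under 0.05 numbered 5 for ATRA against BMS961, 4 for ATRA against BMS753, 2 for ATRA against BMS641, 4 for BMS961 against BMS641 and 1 in each of the other pairs. The shares of all genes were 9.11%, 11%, 12.6% and 4.59% for these 4, 1.55% for BMS753 against BMS641 and 1.56% for BMS961 against BMS753. Over all genes, 0.11% were called higher and 0.0552% lower for ATRA against BMS961, 0.176% and 0.191% for ATRA against BMS753, and 0.176% and 0.125% for ATRA against BMS641. For BMS961 against BMS641 the shares were 0.00502% and 0%, and in the other pairs 0% in each direction.

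In the wider pathway, 36 of 39 listed genes were measured. Against vehicle, 1 was called higher with ATRA early, 4 with ATRA late and 2 with BMS961 late, where 0.853%, 3.31% and 0.818% of all genes were, and 0 were called lower, where 0.396%, 1.4% and 0.446% were. The median change of the list late was 0.27 with ATRA and -0.01 with BMS961, beside -0.02 and 0.01 over all genes, and 14 and 5 genes, 38.9% and 13.9% of the list, had an unadjusted p under 0.05, against 19.8% and 11.6% of all genes. Early with ATRA, Fstl3, for a follistatin-like activin-binding protein, rose by 1.20 ± 0.20 (2.30-fold, adjusted p = 0.0154), on the arrays where Fst fell. Late with ATRA, Tgfbr3, for the co-receptor betaglycan, rose by 1.94 ± 0.26 (3.85-fold, adjusted p = 0.00259) and Ski, for a co-repressor of SMAD proteins, by 1.06 ± 0.16 (2.09-fold, adjusted p = 0.00481). The related co-repressor gene Skil rose by 0.65 ± 0.16 (adjusted p = 0.045) and the type II TGF-beta receptor gene Tgfbr2 by 0.70 ± 0.17 (adjusted p = 0.0378). With BMS961 late, Tgfbr2 rose by 0.86 ± 0.17 (adjusted p = 0.0312) and Tgfbr3 by 1.28 ± 0.26 (adjusted p = 0.0363), while Ski, at 0.12 ± 0.16, was not called.

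The Tgfbr3 and Ski calls with ATRA held on leaving out each array. With the array-set block, which removes the vehicle pair from the spread, the changes were 1.70 and 0.83. The Tgfbr2 call with ATRA was lost with the block, which leaves out vehicle replicate 2 (adjusted p = 0.185). The Fstl3 call was lost without the ATRA array of 2 h or 6 h (adjusted p = 0.0726 and 0.161). The Skil call was lost without 17 of the 18 arrays in turn (0.39 to 0.91, adjusted p between 0.0538 and 0.27) and kept without vehicle replicate 2. It was also lost with centring (0.50, adjusted p = 0.154) and without common steps (adjusted p = 0.0643). The calls of Tgfbr2 with ATRA, Tgfbr2 with BMS961 and Tgfbr3 with BMS961 were lost on leaving out 12, 10 and 11 of the 18 arrays, and without common steps (adjusted p = 0.0655, 0.0649 and 0.0795). The Tgfbr2 call with ATRA was also lost with quantile normalization (0.56, adjusted p = 0.0865) and with arrays centred on their median (0.56, adjusted p = 0.107). Centring ended the Tgfbr2 call with BMS961 (adjusted p = 0.0649), and quantile normalization the Tgfbr3 call with BMS961 (adjusted p = 0.0536).

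Over the 18 arrays, Lefty1 and Lefty2 correlated at r = 0.77, Lefty1 and Nodal at 0.70, Gdf3 and Tdgf1 at 0.77, Gdf3 and Foxh1 at 0.73, and Gdf3 and Fst at 0.66. The arrays share 1 cell line, the same ligands and, it may be, the 2 inferred array sets. These values are therefore a description. Among 4307 genes whose levels spanned at least 1 log2 unit, those most like Lefty1 were Itpkb (0.937), Ski (0.928) and Rgl3 (0.917). Nodal was most like Mcl1 (0.869), Pim1 (0.818) and Bhlhe40 (0.808), and Lefty2 most like Gpx1 (0.880), Tmem28 (0.855) and Lama5 (0.833). Fst was most like Adhfe1 (0.894), Otx2 (0.872) and Slc17a9 (0.859), and Tdgf1 most like Epp13 (0.916), Nos3 (0.908) and Il17d (0.908). Otx2, a homeobox gene of the epiblast and anterior brain, read 5.28, 6.60, 7.06 and 5.77 with ATRA, 7.94, 7.53, 6.35 and 6.39 with BMS961, 8.40, 8.28, 7.40 and 7.12 with BMS753, and 9.27, 8.84, 8.67 and 8.10 with BMS641. Vehicle arrays read 9.63 and 9.46, so all 16 retinoid arrays lay below both for Otx2, as they did for Fst.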

How the data were processed

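Total RNA of F9 cells, labelled with biotin per the labels' protocols, was run on Affymetrix whole-transcript arrays. Log2 levels per probe set were deposited. Per the submitters' processing notes, the authors used Affymetrix Expression Console 1.1 with RMA. The sources used here do not say which arrays were normalized together. No further scaling was applied to the values, which ran between 2.05 and 14.36. Precision is limited by how many arrays there were.

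The platform annotation gave 1 gene symbol to 21789 of 35556 probe sets, and several to 1621, and did not list 12146; 21698 of the first kind were found in a gene table. A gene was its probe set with 1 symbol, or the one with the highest mean for 999 genes with several, giving 19938 genes, dim ones included. Lefty1 and Lefty2 are close paralogs, and cross-hybridization between them was not tested.

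Groups came from the agent and time in the labels. Because there was 1 array for each retinoid and time, limma 3.58.1 (R 4.3.3) modelled all 18 arrays by 9 group means (vehicle, and early and late for each retinoid) plus a 2 h to 6 h step and a 24 h to 48 h step shared by the retinoids, leaving 7 residual degrees of freedom (eBayes prior 4.55). The 20 comparisons were each adjusted by Benjamini-Hochberg over all genes. P-values measure the spread of the arrays about this fit. It holds the gap between the vehicle arrays, which may be technical, and each retinoid's departures from the shared steps. Those departures can hold differences between ligands in their time course, so the spread is not that of replicates. In simulated data, 67, 67 and 66 of 19938 genes were given 2-, 4- and 8-fold changes late with ATRA. Against vehicle, 82.1%, 91% and 100% of these were recovered, with 16 false calls. The simulated noise was independent between arrays, with no gap between vehicle arrays and no time steps that differ between ligands. These shares therefore need not hold for the real arrays. Other settings were quantile normalization, centring on the median, a filter on dim genes, the mean of probe sets, eBayes with trend and robust, no common steps, the array set as a block and leaving out each array.

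The members, gene lists, array sets and comparisons were chosen with earlier results of these data known. The wider pathway list and marker lists (embryonal carcinoma, primitive and parietal endoderm, visceral endoderm, fibroblast, neural) come from textbook knowledge. Named genes were the 10 members, the wider list's genes called against vehicle, and for Nodal, Lefty1, Lefty2, Fst and Tdgf1 the 3 genes with the highest Pearson correlation among those spanning at least 1 log2 unit. Otx2 levels were printed after they were seen. Promoter windows came from RefSeq (GRCm38.p6). Tables and figures were made in Python 3.11.15 (pandas 2.3.3, numpy 2.4.6, matplotlib 3.10.9).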

Additional observations from a re-analysis of the deposited data

Results flagged for a closer look

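Tdgf1, the Nodal co-receptor gene, changed between early and late times within a ligand, by the test of that difference itself. Late minus early was -1.47 ± 0.26 with ATRA (95% interval -2.05 to -0.90) and -1.38 ± 0.26 with BMS961 (95% interval -1.95 to -0.80). The BMS961 call was lost with quantile normalization (adjusted p = 0.0549), without common steps (adjusted p = 0.0842) and on leaving out 12 of the 18 arrays, and the ATRA call without its array of 2 h or 48 h. With BMS753 it was -0.20 and with BMS641 -0.01, neither called. The direct test of ATRA against BMS641 in this difference was not called (adjusted p = 0.132), nor was that of BMS961 against BMS641 (adjusted p = 0.795).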

How the results depend on the processing

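No analysis paired by replicate number was possible because each retinoid and time had 1 array and only the vehicle arrays carry replicate numbers. Arrays of different ligands were matched by time, through the phases and common steps of the fit. No call changed direction under any setting. Of 32 called gene results, 25 of members and 7 of the wider pathway, 32 held with a filter on dim genes or with probe sets averaged per gene, 30 with trend and robust, 29 with arrays centred on their median, 27 with quantile normalization and 22 without common steps; 16 of 30 held with the array set as a block. Calls of members with vehicle as the comparison were 1 higher and 9 lower, and 3 and 6 with the block. Against BMS641 they were 4 higher and 7 lower, and 0 and 4 with the block. Between ATRA and BMS961 they were 2 higher and 0 lower, and 0 and 1 with the block. Late against early they were 0 higher and 2 lower, and 4 were lower over genes above the median level, where fewer genes were tested. Leaving out 1 array at a time gave 1 to 9 higher and 6 to 18 lower calls against vehicle, 1 to 5 and 2 to 9 against BMS641, 0 to 5 and 0 to 1 between ATRA and BMS961, and 0 to 2 and 0 to 9 late against early. The extremes against vehicle, 9 higher and 18 lower, came without vehicle replicate 1 and without vehicle replicate 2. By construction, leaving out either one removes the vehicle pair from the spread of every gene, and so does the block. Shares of all genes called are not given here for these settings. The counts therefore do not set the members apart from other genes. The block also leaves every difference among BMS compounds as it is, so calls kept there are no check. Of 160 single levels, 3 were past 2-fold higher and 16 lower, against 0.414% and 0.127% of levels over all genes. At 1.5-fold, 9 were higher, at 3-fold 1 was higher and 10 lower, against vehicle replicate 2 alone 21 were higher, and against replicate 1 alone 35 were lower. For these other limits the shares over all genes are not given here either. Among single genes, Nodal late with ATRA against BMS961 passed with trend and robust (0.78, adjusted p = 0.0445). Inhbb late minus early with ATRA passed with quantile normalization (-1.38, adjusted p = 0.0404). Calls lost with quantile normalization included Lefty1 early with ATRA against BMS641 (adjusted p = 0.0552), and with trend and robust Lefty2 late with BMS961 against BMS641 (adjusted p = 0.0525). The causes were not tested. With 1 array for each retinoid and time, no change at a single time could be tested.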

Other observations

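Itpkb, for an inositol trisphosphate kinase, was the gene whose levels were most like those of Lefty1. Itpkb read 5.41, 5.50, 6.06 and 5.86 with ATRA at 2, 6, 24 and 48 h, 4.90 to 5.11 over the 12 BMS arrays, and 5.73 and 4.88 with vehicle. As for Lefty1, vehicle replicate 1 stood closer to the ATRA arrays than replicate 2 did. Which step of the experiment separates the 2 vehicle arrays is not given in the sources used here.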
